A study of Mus musculus with 6 samples.

Results

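The collagen genes of the mouse were followed in RNA sequencing of LSK cells, marrow cells without lineage markers but with Sca-1 and c-Kit, among which the blood stem cells and their first descendants are found. Members were the rows whose symbol consists of Col, a type number, the letter a and a chain number, and there were 44 of them among 48395 symbols. Of the 6 libraries, 3 were labelled Hmga2 and 3 were labelled vector. All donor marrow carried Mx1Cre and the activating Jak2V617F/+ allele (Jak2VF/+) and came from mice primed with 5-fluorouracil. It was transduced with lentivirus that expressed Hmga2, an architectural protein of chromatin, or with the vector alone, and was transplanted into lethally irradiated C57BL/6 recipients. Marrow was collected 32 weeks after transplantation and the LSK fraction was sorted. The labels call the libraries of a group biological replicates. Mx1Cre is active in blood cells and also in other tissues, and cells of the recipient's own marrow stroma remain in such mice. The sources used here do not give the age or sex of the animals, or whether animals were pooled.

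Collagens are extracellular proteins built from 3 chains wound into a triple helix. Fibrillar collagens form the fibres that accumulate in marrow fibrosis, a late stage of diseases driven by mutant Jak2. Type IV collagen forms the sheet-like network of basement membranes, fibril-associated collagens sit on the surface of fibres, and the multiplexins are collagens of basement membrane zones. In marrow, type I and type III collagen are made mainly by stromal and bone-forming cells, and LSK cells are not usually regarded as a source.

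Total counts per library ranged from 24818011 to 35471806. The sorted cells expressed the genes behind the sort, with Kit between 239 and 376 CPM (counts per 1000000 counts of the library) and Ly6a, which encodes the Sca-1 antigen, between 19.2 and 56.9 CPM. The added gene did not stand out in libraries labelled Hmga2. Hmga2 was at 2.63, 6.70 and 6.01 CPM in libraries labelled Hmga2 and at 6.07, 4.98 and 6.78 CPM in the vector libraries, with a log2 fold change of -0.25 and a standard error of 0.35 (edgeR, adjusted p = 0.934). The sources used here leave unsaid if the lentiviral copy contributed to these counts. Directions below are therefore those of libraries carrying a label.

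Most of the family was absent or nearly absent. A member was taken as detected when every library held at least 3 counts, which is the upper limit that a count of 0 allows and corresponds to 0.0846 to 0.121 CPM, for counting error only. By that measure 17 of 44 collagens, or 38.6%, were detected, beside 35.1% of all symbols in the tables and 64.9% of symbols above 0 in any library. At 10 counts in every library 13 remained, and at 100 counts 6 remained. Another 18 reached 3 counts in some libraries but not in all, 6 were above 0 but never reached 3, and 3 were listed at 0 throughout. Those 3 were Col6a4 and Col6a5, chains of the beaded filament type VI, and Col9a1, a chain of the cartilage type IX. The 6 that never reached 3 counts were Col8a2, Col9a2, Col10a1, Col11a1, Col12a1 and Col24a1. Type X collagen (Col10a1) marks hypertrophic cartilage, where the chain is made during bone growth.

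The structural classes differed in how many members were detected. Of the fibrillar collagens 6 of 11 were detected, of the fibril-associated collagens 4 of 9, of type IV 2 of 6, of the multiplexins 1 of 2 and of the transmembrane collagens 1 of 4. The 3 members outside these classes, Col7a1 of anchoring fibrils, Col26a1 and Col28a1, were all detected. None of the 6 type VI chains and none of the 3 network-forming chains Col8a1, Col8a2 and Col10a1 was. Type VI is abundant in connective tissue, and here the highest count of Col6a1 was 20 in a library.

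A group of 6 genes carried nearly all collagen counts. Col16a1, Col4a1, Col4a2, Col18a1, Col11a2 and Col5a1 made up 84.8%, 85.6% and 89.9% of summed collagen CPM in Hmga2 replicates 1, 2 and 3 and 92.8%, 85.9% and 85.7% in vector replicates 1, 2 and 3. Per kb of transcript, Col16a1 had the highest mean, 3.87 ± 2.57 CPM per kb, followed by Col4a1 at 2.98 ± 1.03, Col4a2 at 2.96 ± 1.16, Col18a1 at 2.52 ± 1.92 and Col11a2 at 2.33 ± 0.173 CPM per kb (SD over all 6 libraries). The spreads of these 5 over the libraries overlapped, and their order was not tested. Within each of the 6 libraries Col16a1 was above Col18a1 per kb. Col5a1 came next at 1.13 ± 0.449 CPM per kb, and the seventh, Col26a1, was at 0.471 ± 0.0722 CPM per kb. Col16a1 lay above 39.2% of the 16483 genes with at least 3 counts in every library and a known length, Col5a1 above 23.0%, and Col1a1 above 4.26%. The most abundant collagens were thus in the lower part of the range of genes these cells express, and Col1a1 near its bottom.

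**Figure D1:**
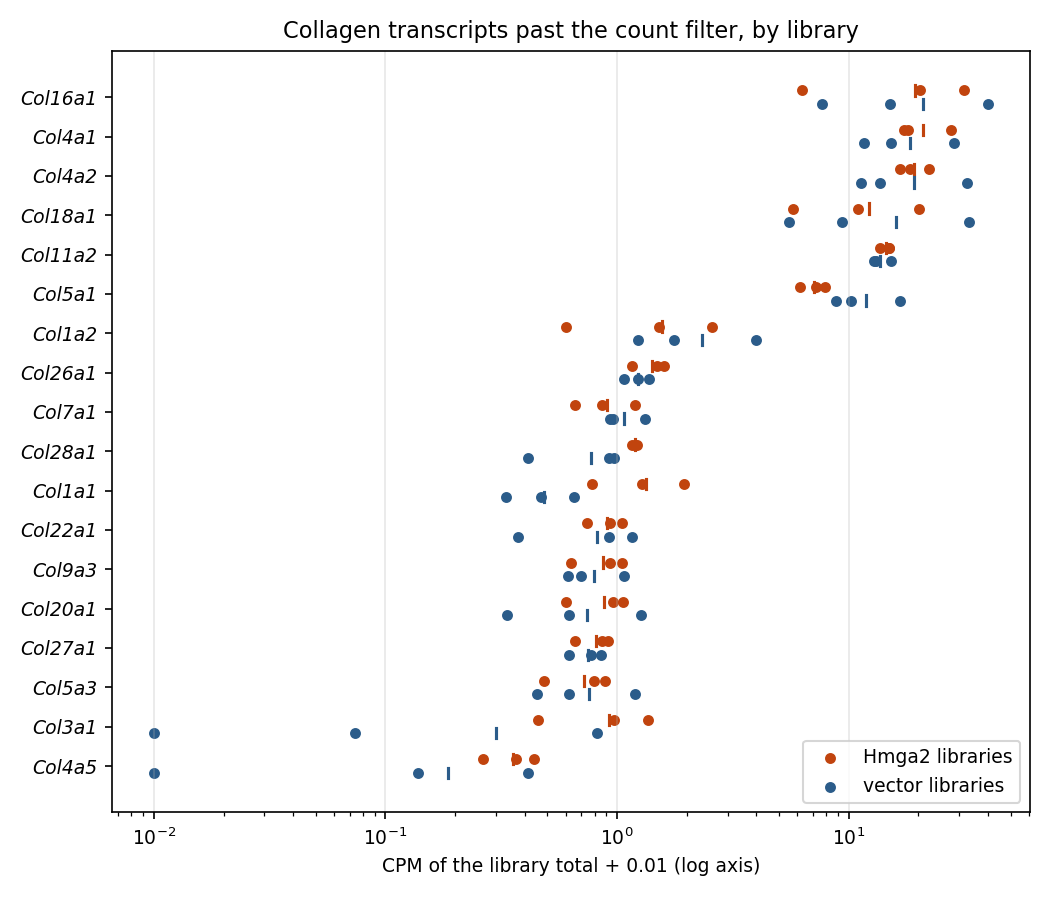
Level of the 18 collagens that passed the count filter. The x axis gives CPM of the library total plus 0.01 on a log axis, each point is a library and each short vertical line a group mean, for 3 libraries labelled Hmga2 and 3 vector libraries. The 6 upper genes lie between 5.50 and 40.0 CPM, and the other 12 lie under 4 CPM in every library.

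The basement membrane chains Col4a1 and Col4a2, which assemble together in a single triple helix, were present in near equal numbers in each library. Their genes lie back to back on chromosome 8, Col4a1 at positions 11198423 to 11312826 on the minus strand and Col4a2 at 11312805 to 11449287 on the plus strand (GENCODE M21, mm10), so that their annotated first exons share 22 bases. The RefSeq windows from 250 bases before to 50 bases after each start (GRCm38.p6) are given for this pair. The part of these windows in the levels was not tested. They cover chr8:11312777-11313076 on the minus strand and chr8:11312555-11312854 on the plus strand, have 78 bases in common, and are each written from 5′ to 3′. Capitals mark GC boxes (GGGCGG, or CCGCCC on the other strand) and CCAAT boxes (CCAAT, or ATTGG on the other strand).
Col4a1: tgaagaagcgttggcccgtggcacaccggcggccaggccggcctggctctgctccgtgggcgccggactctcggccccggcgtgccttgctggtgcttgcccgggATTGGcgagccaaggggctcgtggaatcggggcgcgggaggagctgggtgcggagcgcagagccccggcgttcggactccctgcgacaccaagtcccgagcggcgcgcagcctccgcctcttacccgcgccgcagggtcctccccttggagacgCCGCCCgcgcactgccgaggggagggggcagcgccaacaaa
Col4a2: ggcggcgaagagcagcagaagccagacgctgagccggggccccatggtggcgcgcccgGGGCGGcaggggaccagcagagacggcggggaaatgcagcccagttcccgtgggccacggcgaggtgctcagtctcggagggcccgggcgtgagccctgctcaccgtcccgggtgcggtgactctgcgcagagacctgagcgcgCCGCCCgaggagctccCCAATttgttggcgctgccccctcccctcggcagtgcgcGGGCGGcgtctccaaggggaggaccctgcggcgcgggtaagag
The Col4a1 window held 1 GC box and 1 CCAAT box, and the Col4a2 window 3 GC boxes and 1 CCAAT box. Neither held a TATA box searched as TATAAA on both strands. Among all 32851 windows of this length, 35.7% held a GC box, 37.4% a CCAAT box and 13.6% this TATA box.

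Col4a1 had 615, 839 and 612 counts in libraries labelled Hmga2, or 17.3, 27.6 and 18.1 CPM, and 887, 305 and 379 counts in the vector libraries, or 28.4, 11.6 and 15.3 CPM. Col4a2 had 589, 676 and 623 counts in libraries labelled Hmga2, or 16.6, 22.2 and 18.4 CPM, and 1008, 297 and 340 counts in the vector libraries, or 32.3, 11.3 and 13.7 CPM. Vector replicate 1 was highest and vector replicate 2 lowest for both genes, and the groups overlapped. The ratio of Col4a1 to Col4a2 counts was 1.04, 1.24 and 0.982 in libraries labelled Hmga2 and 0.880, 1.03 and 1.11 in the vector libraries, while the levels themselves spanned 2.44-fold for Col4a1 and 2.85-fold for Col4a2. The log2 fold change of labelled Hmga2 over vector was 0.17 for Col4a1 with a 95% interval from -0.63 to 0.97, and -0.02 for Col4a2 with an interval from -0.89 to 0.86. The other type IV chains, which replace these in kidney and some other tissues, were nearly absent. Col4a3 and Col4a4 did not exceed 8 and 3 counts in a library, Col4a6 ranged between 0 and 18 counts, and Col4a5 between 0 and 13.

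Col16a1 and Col18a1 varied most among the abundant collagens, and varied together without following the labels. Col16a1 encodes the fibril-associated type XVI chain, and Col18a1 the multiplexin chain whose end fragment is endostatin, an inhibitor of vessel growth. Col16a1 (chromosome 4, positions 130047840 to 130099283) was at 6.29, 20.4 and 31.4 CPM in libraries labelled Hmga2 and at 40.0, 7.67 and 15.1 CPM in the vector libraries, from 201 to 1247 counts. Col18a1 (chromosome 10, positions 77052178 to 77166548) was at 5.72, 10.9 and 20.1 CPM in libraries labelled Hmga2 and at 33.1, 5.50 and 9.39 CPM in the vector libraries, from 144 to 1034 counts. Vector replicate 1 was highest for both, followed by Hmga2 replicate 3 and Hmga2 replicate 2, while Hmga2 replicate 1 and vector replicate 2 were lowest. The levels spanned 6.36-fold for Col16a1 and 6.03-fold for Col18a1, against 1.19-fold for Col11a2. The ratio of Col16a1 to Col18a1 counts was 1.10, 1.86 and 1.56 in libraries labelled Hmga2 and 1.21, 1.40 and 1.61 in the vector libraries. The log2 fold changes of -0.13 for Col16a1 and -0.40 for Col18a1 had standard errors of 0.70 each.

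The RefSeq start windows of this pair are given for comparison with those of the type IV pair, with the same motifs in capitals. The Col16a1 window is chr4:130047590-130047889 on the plus strand. Col18a1 has an upstream and a downstream start in RefSeq, at chr10:77166481-77166780 and chr10:77113656-77113955, both on the minus strand.
Col16a1: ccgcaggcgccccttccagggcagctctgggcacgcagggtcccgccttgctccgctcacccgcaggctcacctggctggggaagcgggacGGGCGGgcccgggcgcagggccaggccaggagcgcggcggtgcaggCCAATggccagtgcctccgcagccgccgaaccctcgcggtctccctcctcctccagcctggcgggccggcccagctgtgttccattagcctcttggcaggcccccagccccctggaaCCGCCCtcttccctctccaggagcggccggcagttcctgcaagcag
Col18a1 upstream: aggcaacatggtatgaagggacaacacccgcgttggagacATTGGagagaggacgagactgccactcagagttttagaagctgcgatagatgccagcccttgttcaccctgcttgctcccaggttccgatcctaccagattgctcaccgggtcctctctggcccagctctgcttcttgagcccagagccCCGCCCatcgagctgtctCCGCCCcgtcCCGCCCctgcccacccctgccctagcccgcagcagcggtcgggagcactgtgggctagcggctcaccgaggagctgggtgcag
Col18a1 downstream: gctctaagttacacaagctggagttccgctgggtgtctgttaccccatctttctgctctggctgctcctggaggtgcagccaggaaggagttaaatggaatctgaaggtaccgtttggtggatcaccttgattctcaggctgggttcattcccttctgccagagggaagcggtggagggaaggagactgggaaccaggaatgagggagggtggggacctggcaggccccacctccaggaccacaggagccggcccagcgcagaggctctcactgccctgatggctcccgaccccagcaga
The Col16a1 window held 2 GC boxes and 1 CCAAT box, the upstream Col18a1 window 3 GC boxes and 1 CCAAT box, and the downstream one none of either. The counts per symbol do not separate the starts of Col18a1. Of the 15 windows available for 14 of the tested collagens, 11 held a GC box, 8 a CCAAT box and 2 the TATA box. Among all 32851 windows the shares were 35.7%, 37.4% and 13.6%. Those windows were not limited to genes past the count filter, as the collagen windows were, so the sets are not alike.

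Markers of megakaryocytes, and some markers of endothelium, moved in part with these collagens across the libraries, as did some other gene lists. The summed level of Pf4, Itga2b, Gp9 and Gp1bb was 501, 704 and 574 CPM in libraries labelled Hmga2 and 647, 468 and 419 CPM in the vector libraries. The Vwf transcript, which encodes von Willebrand factor of endothelium, megakaryocytes and some stem cells, was at 72.4, 96.2 and 195 CPM in libraries labelled Hmga2 and at 172, 62.2 and 40.9 CPM in the vector libraries. The 3 libraries with the highest Col4a1 and Col16a1, namely vector replicate 1, Hmga2 replicate 2 and Hmga2 replicate 3, also had the highest Vwf and the highest megakaryocyte sum. Vwf was taken after its values were seen from a list of 8 endothelial markers, whose sum was 211, 229 and 337 CPM in libraries labelled Hmga2 and 283, 175 and 150.2 CPM in the vector libraries. That sum was also highest in the same 3 libraries. So was Tek, another member, at 30.2 CPM in Hmga2 replicate 2, 26.7 CPM in vector replicate 1 and 24.8 CPM in Hmga2 replicate 3. The remaining members of that list did not share these 3 highest libraries. Pecam1, its highest member per kb, was at 115, 91.4 and 109.6 CPM in libraries labelled Hmga2 and at 77.8, 95.1 and 89.8 CPM in the vector libraries, lowest in vector replicate 1. Emcn was at 0.366, 7.53 and 1.24 CPM in libraries labelled Hmga2 and at 2.31, 4.01 and 1.01 CPM in the vector libraries. Cdh5, a defining endothelial gene, was under 1 CPM in every library. These 3 highest libraries were not particular to megakaryocyte and endothelial markers. Sums of collagen receptors, collagen processing and cross-linking genes, other matrix genes and chondrocyte markers were highest in the same 3. Sums of the remaining lists outside the collagens were not. The part of megakaryocytes or endothelium in the collagen levels was not tested. In bulk samples fewer cells of a type and less RNA per cell cannot be told apart.

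**Figure D2:**
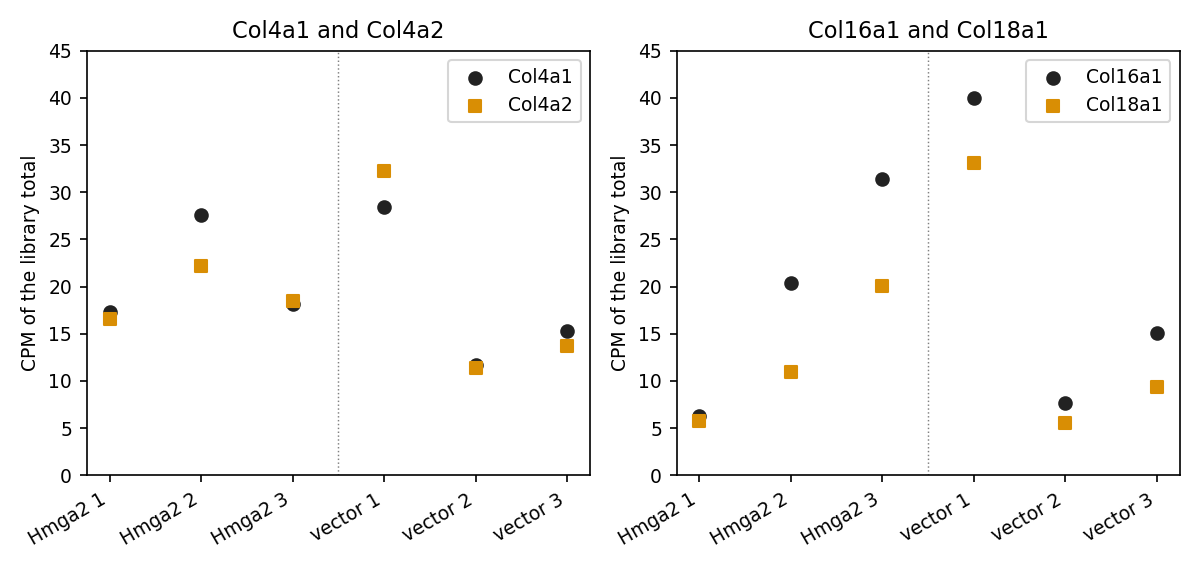
CPM of the library total by library for Col4a1 and Col4a2 (left) and for Col16a1 and Col18a1 (right). Each point is a library, with libraries labelled Hmga2 left of the dotted line and vector libraries right of it. In both panels vector replicate 1 is highest, at up to 32.3 CPM on the left and 40.0 CPM on the right.

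Col11a2 and Col5a1 encode chains of minor fibrillar collagens that regulate fibre diameter, and both were detected with few or no counts of the chains they usually pair with. Col11a2 (chromosome 17, positions 34039437 to 34066685) had 529, 456 and 461 counts in libraries labelled Hmga2 and 474, 335 and 326 counts in the vector libraries, or 14.9, 15.0 and 13.6 CPM against 15.2, 12.8 and 13.1 CPM. It was the steadiest of the 6 abundant members, with a log2 fold change of 0.06 and a 95% interval from -0.26 to 0.37. Its type XI partner Col11a1 had at most 2 counts in a library, and Col2a1, the cartilage collagen whose chain also enters type XI, had 5, 1 and 1 counts in libraries labelled Hmga2 and 0, 3 and 12 counts in the vector libraries. Col9a3 showed the same pattern at a lower level, with 15 to 37 counts beside a type IX partner listed at 0, Col9a1, and another with at most 1 count, Col9a2. By annotation 234 bases of Col9a3 exons overlap Tcfl5 on the opposite strand, which averaged 0.0107 CPM in the same tables, and reads of the 2 genes there cannot be told apart.

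Col5a1 (chromosome 2, positions 27886425 to 28039514) encodes the main chain of type V. It was at 7.92, 7.22 and 6.13 CPM in libraries labelled Hmga2 and at 8.84, 16.6 and 10.2 CPM in the vector libraries, from 207 to 436 counts. All 3 libraries labelled Hmga2 lay below all 3 vector libraries, and vector replicate 2 was the highest. The log2 fold change was -0.77 with a standard error of 0.27 (unadjusted p = 0.0235, adjusted p = 0.855 by edgeR, adjusted p = 0.350 by DESeq2), and -0.46 without vector replicate 2. The exact permutation p of these levels, two-sided, was 0.1, the smallest that 3 libraries against 3 allow. Its exons share 113 bases with the opposite-strand transcript Gm13372, which averaged 0.162 CPM. Its usual partner Col5a2 had at most 8 counts in a library, and Col5a3 had 11 to 31.

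The collagens of fibrosis were scarce. Col1a1 and Col1a2 encode the chains of type I, the main collagen of bone and scar, and Col3a1 the chain of type III, the reticulin fibre. Col1a1 (chromosome 11, positions 94936224 to 94953042) had 45, 59 and 26 counts in libraries labelled Hmga2 and 20, 12 and 8 counts in the vector libraries, or 1.27, 1.94 and 0.769 CPM against 0.641, 0.458 and 0.322 CPM. Every library labelled Hmga2 lay above every vector library, at a mean of 1.33 ± 0.587 CPM against 0.474 ± 0.160 CPM (SD, n = 3 each). The difference did not pass, at 1.45 ± 0.44 (log2 fold change and standard error; unadjusted p = 0.0132, adjusted p = 0.855 by edgeR, adjusted p = 0.605 by DESeq2; exact permutation p = 0.1). With single libraries left out it lay between 1.07 and 1.73.

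Col1a2 did not follow Col1a1. It had 21, 78 and 51 counts in libraries labelled Hmga2 and 38, 46 and 99 counts in the vector libraries, or 0.592, 2.56 and 1.51 CPM against 1.22, 1.76 and 3.99 CPM. The groups overlapped, and the log2 fold change of -0.62 had a 95% interval from -2.10 to 0.86. A type I molecule normally holds more of the Col1a1 chain than of the Col1a2 chain, yet per kb of transcript the Col1a1 to Col1a2 ratio was 1.93, 0.682 and 0.460 in libraries labelled Hmga2 and 0.475, 0.235 and 0.0729 in the vector libraries. Col1a1 was the more abundant of the pair in 1 library, Hmga2 replicate 1.

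Col3a1 had 34, 41 and 15 counts in libraries labelled Hmga2 and 2, 0 and 20 counts in the vector libraries. The groups overlapped through vector replicate 3, and the log2 fold change was 1.64, standard error 1.11 (adjusted p = 0.855, edgeR). Without vector replicate 3 it was 4.59, a value that rests on 2 counts in the remaining vector libraries.

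Marrow stroma markers were read beside these scarce transcripts. Of 9 such markers, 5 were under 1 CPM in every library (Kitl, Pdgfra, Adipoq, Ebf3 and Foxc1). Lepr, which marks the main stromal cell of adult marrow, was at 0.733, 1.55 and 0.917 CPM in libraries labelled Hmga2 and at 1.25, 0.878 and 1.37 CPM in the vector libraries. Cxcl12, the stromal chemokine that retains stem cells, did not overlap between groups and was at 2.79, 2.56 and 4.38 CPM in libraries labelled Hmga2 against 0.224, 0.993 and 0.564 CPM in the vector libraries. Its log2 fold change was 2.42, standard error 0.52 (edgeR adjusted p = 0.855, DESeq2 adjusted p = 0.00884). Of the 4 stroma markers past the filter DESeq2 called 1 and edgeR 0. Over all genes tested DESeq2 called 0.424% and edgeR 0.00%, and for 11.2% the groups did not overlap. All 9 markers summed to 68.3 to 84.9 CPM in libraries labelled Hmga2 and to 57.1 to 79.3 CPM in the vector libraries. That sum was led by Pdgfrb, at 41.9 to 69.3 CPM over the 6 libraries, and by Lpl, at 5.44 to 19.4 CPM. Of 8 osteoblast markers, 5 were under 1 CPM in every library (Bglap, Bglap2, Ibsp, Sp7 and Dmp1). The other 3 were Runx2, a transcription factor of bone that blood cells also express, at 40.0 to 55.8 CPM, Spp1 at 0.874 to 4.76 CPM and Alpl at 0.305 to 2.40 CPM over the 6 libraries. The osteoblast sum ranged from 55.1 to 61.1 CPM in libraries labelled Hmga2 and from 43.6 to 60.9 CPM in the vector libraries. No marker of either list was at 0 in all libraries. Plasma cell markers differed widely, with summed levels from 253 to 2896 CPM in libraries labelled Hmga2 and from 220 to 9967 CPM in the vector libraries. The part of any of these cells in the collagen counts was not tested.

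All but 1 of the remaining detected collagens lay near 1 CPM, the exception being Col23a1, a transmembrane collagen with 0.0846 to 0.207 CPM. Col26a1, Col7a1, Col28a1, Col22a1, Col20a1, Col27a1 and Col5a3 had group means between 0.712 and 1.40 CPM in libraries labelled Hmga2 and between 0.733 and 1.22 CPM in the vector libraries. Col28a1, a collagen known mainly from peripheral nerve, was at 1.21, 1.15 and 1.18 CPM in libraries labelled Hmga2 and at 0.961, 0.916 and 0.403 CPM in the vector libraries, without overlap, and its log2 fold change of 0.61 had a 95% interval from -0.24 to 1.46 (exact permutation p = 0.1). Glial and myelin markers summed to between 113 and 145 CPM in libraries labelled Hmga2 and between 115 and 374 CPM in the vector libraries, a sum led by Mbp. All 4 that passed the filter had negative log2 fold changes (median -1.88), with 0 called by edgeR and 1 by DESeq2. The shares called over all genes tested were 0.00% by edgeR and 0.424% by DESeq2. The glial gene called was Gfap, at 1.24, 1.58 and 0.740 CPM in libraries labelled Hmga2 and at 11.8, 9.51 and 3.63 CPM in the vector libraries (edgeR adjusted p = 0.855, DESeq2 adjusted p = 7.49e-06). The part of glial RNA in the collagen counts was not tested. Col27a1, a fibrillar collagen of cartilage, was steady, with levels spanning 1.48-fold over the 6 libraries. Col23a1 had 3 to 7 counts in every library and did not pass the filter.

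Across the family no difference between the labels passed the test. The 18 collagens that passed the count filter included Col3a1 and Col4a5, which were below 3 counts in some library. At an adjusted p of 0.05, edgeR called 0 of the 18 and DESeq2 0, and 2 had an unadjusted p under 0.05, Col1a1 and Col5a1. Over all 16739 genes tested edgeR called 0.00% and DESeq2 0.424%, and 5.59% had an unadjusted p under 0.05. Groups did not overlap for 3 of the 18, with Col1a1 and Col28a1 higher and Col5a1 lower in libraries labelled Hmga2, beside 11.2% of all genes tested. Over those genes, 5.28% had every library labelled Hmga2 above every vector library and 5.88% had every one below. Positive log2 fold changes numbered 11 and negative ones 7, with a median of 0.10 beside 0.00 over all genes. The other 26 collagens held 1.82% of all collagen counts, with at most 21 counts in a library.

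**Figure D3:**
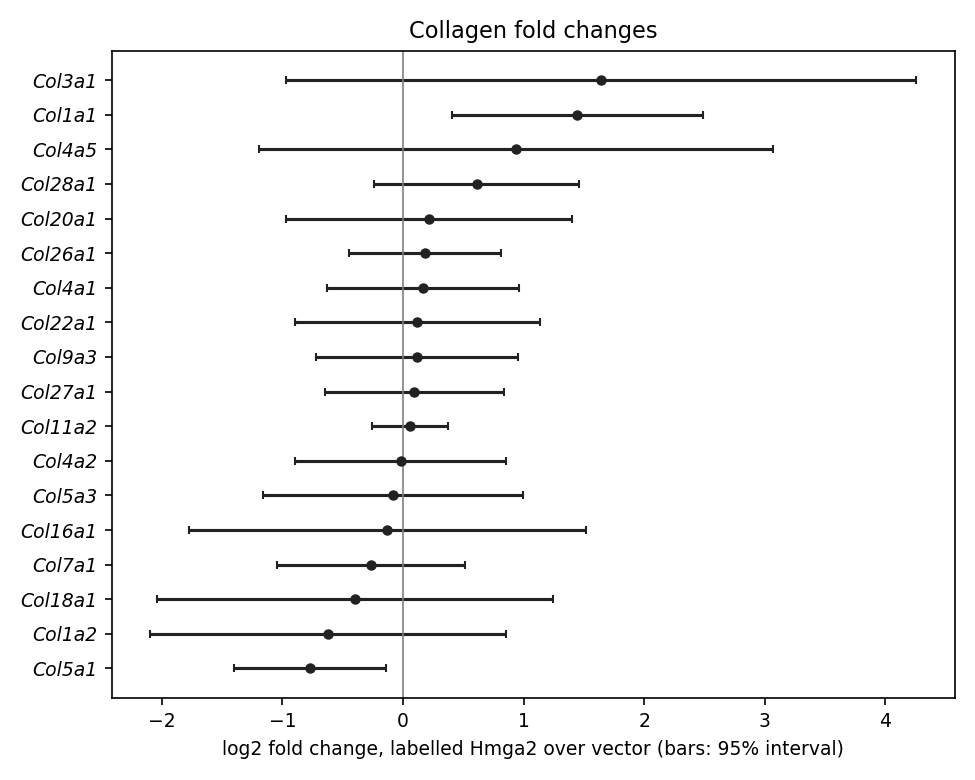
Log2 fold change of labelled Hmga2 over vector for the 18 collagens past the count filter, by edgeR, with 95% intervals that are not adjusted for the number of genes. The intervals of Col1a1 (0.41 to 2.49) and Col5a1 (-1.40 to -0.14) lie to either side of 0 and all others include it.

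The total collagen level followed single libraries rather than labels. Summed over the family it was 81.1, 121 and 120 CPM in libraries labelled Hmga2 and 170, 76.4 and 89.7 CPM in the vector libraries, a difference of -4.85 CPM against standard deviations of 22.7 and 50.7 CPM. Without vector replicate 1 the difference was 24.2 CPM. Of the 4 classes with the highest sums, fibrillar collagens varied least, at 27.2 ± 3.08 CPM in libraries labelled Hmga2 and 30.5 ± 3.26 CPM in the vector libraries. Most of that sum was Col11a2, at means of 14.5 and 13.7 CPM, and Col5a1, at 7.09 and 11.9 CPM (labelled Hmga2, then vector). The scarce fibrillar genes Col1a1 and Col1a2 spanned 6.02-fold and 6.74-fold over the 6 libraries. Type IV was at 40.8 ± 8.56 CPM and 38.1 ± 20.5 CPM, fibril-associated collagens at 22.3 ± 12.6 CPM and 23.5 ± 17.9 CPM, and multiplexins at 12.5 ± 7.31 CPM and 16.3 ± 15.3 CPM (labelled Hmga2, then vector; SD, n = 3 each).

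**Figure D4:**
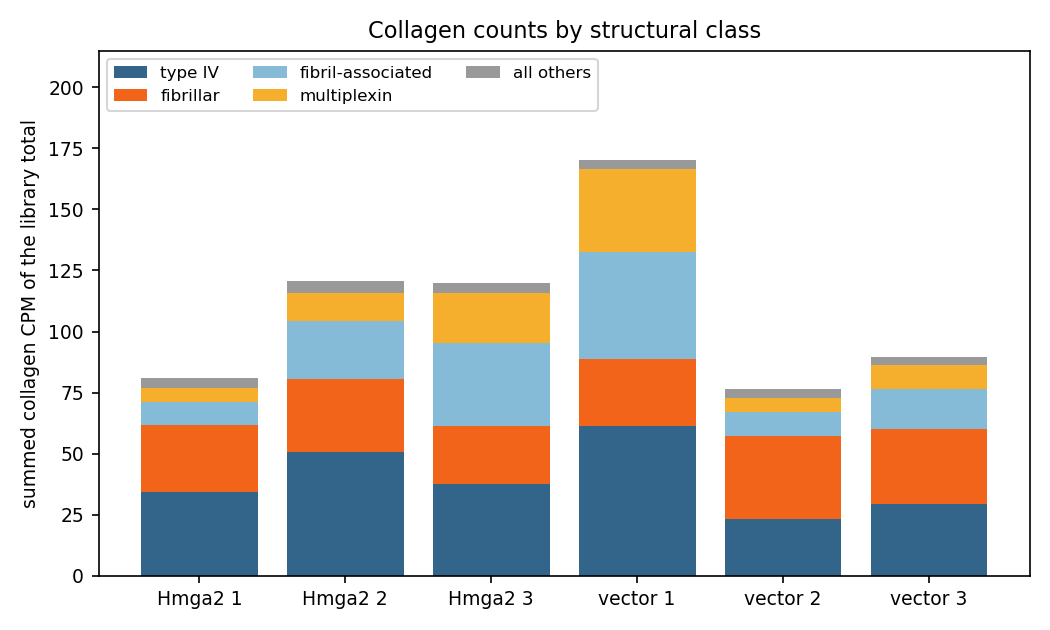
Summed collagen CPM of the library total, stacked by structural class, for each of 3 libraries labelled Hmga2 and 3 vector libraries. Vector replicate 1 has the tallest bar at 170 CPM, and the type IV, fibril-associated and multiplexin parts differ more between libraries than the fibrillar part.

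The leading genes that fold and modify collagen chains, which also serve other proteins, stood far above the collagens per kb. Ppib averaged 319, P4hb 262 and Colgalt1 49.7 CPM per kb over the 6 libraries, beside 3.87 CPM per kb for Col16a1. Of 21 genes for collagen synthesis 17 passed the filter, 5 with a positive and 12 with a negative log2 fold change (median -0.06), and edgeR and DESeq2 called 0. P4hb, the disulphide isomerase that is also a subunit of prolyl hydroxylase, was at 695 ± 53.8 CPM in libraries labelled Hmga2 and at 804 ± 128 CPM in the vector libraries. Ppib, a prolyl isomerase of the endoplasmic reticulum, was at 276 ± 26.0 and 294 ± 27.1 CPM, and Colgalt1, which adds galactose to collagen, at 157 ± 17.3 and 162 ± 14.3 CPM (labelled Hmga2, then vector; SD, n = 3 each). Serpinh1, the chaperone specific to collagen, did not pass the filter and was at 0.0564, 0.493 and 1.39 CPM in libraries labelled Hmga2 and at 0.0641, 0.305 and 0.282 CPM in the vector libraries; it was singled out after its values were seen.

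Enzymes that trim and cross-link collagen numbered 13, of which 7 passed the filter, 5 with a positive and 2 with a negative log2 fold change (median 0.12), and both tools called 0. Bmp1, a procollagen C-proteinase, was at 19.5 ± 0.923 CPM in libraries labelled Hmga2 and at 17.7 ± 3.96 CPM in the vector libraries. Adamts3, an N-proteinase, was at 7.87 ± 0.841 and 7.10 ± 1.01 CPM, and Loxl2, a cross-linking oxidase, at 6.98 ± 0.611 and 8.53 ± 1.60 CPM. Of 12 receptors for collagen 8 passed, 7 positive and 1 negative (median 0.08), with 0 called by either tool. Adgrg1, an adhesion receptor of stem cells that binds type III collagen, was at 1664 ± 157 CPM in libraries labelled Hmga2 and at 1343 ± 208 CPM in the vector libraries, Itgb1, the shared chain of collagen-binding integrins, at 245 ± 14.8 and 237 ± 27.2 CPM, and the inhibitory receptor gene Lair1 at 20.7 ± 2.25 and 20.4 ± 2.51 CPM.

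Of 10 genes for collagen breakdown 7 passed, 3 positive and 4 negative (median -0.16), with 0 called by either tool. Mmp14, a membrane-bound collagenase, was at 13.7 ± 1.84 CPM in libraries labelled Hmga2 and at 16.2 ± 6.89 CPM in the vector libraries, and its inhibitor Timp2 at 17.4 ± 2.97 and 15.6 ± 3.52 CPM. Of 14 other matrix genes 9 passed, 4 positive and 5 negative (median -0.11), with 0 called by edgeR and 1 by DESeq2. Over all genes tested the shares called were 0.00% and 0.424%. The matrix gene called was Sparc, which encodes a collagen-binding matrix protein, at 1.13, 2.73 and 2.25 CPM in libraries labelled Hmga2 and at 14.1, 7.41 and 5.48 CPM in the vector libraries. Its groups did not overlap, which held for 11.2% of all genes tested. The log2 fold change of Sparc was -2.16, standard error 0.44 (edgeR adjusted p = 0.855, DESeq2 adjusted p = 0.000757). Its direction was opposite to that of Col1a1.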

How the data were processed

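RNA was sequenced from sorted LSK cells, with groups and replicate numbers taken from titles. The authors deposited expected counts per gene symbol; this unit was judged from the values (none negative, 67.3% to 70.1% of values above 0 whole within 1e-06, totals unequal). Bowtie2, Partek 3.0 and the build mm10 are named, per the submitters' processing notes; the sources used here do not give the counter, the annotation or the strand setting. Without a known strand setting, reads of a gene and of an overlapping antisense gene cannot be told apart. In GENCODE M21, 13 collagens share exon bases with another gene. For Col3a1, Col7a1 and Col20a1 that gene lies on the same strand, and for the others on the opposite strand.

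Levels were scaled to CPM of the library total. For the test, expected counts were rounded and fitted over all genes with edgeR 4.0.16 under R 4.3.3 (TMM scaling, filterByExpr with the group, quasi-likelihood F test on group alone, Benjamini-Hochberg adjustment over 16739 genes, threshold 0.05). Standard errors come from the F statistic. DESeq2 1.42.0 was the other tool. The edgeR steps were tested on simulated counts, with changed genes drawn only from the more abundant ones. Of 100 genes changed 2-fold 73 were recovered, and of 100 changed 4-fold 96, with 11 false calls in all. Recovery of changes in scarce genes was not tested. Levels per kb used the longest coding transcript of GENCODE M21, on the same build. No library was a duplicate of another of its group, since the chi-square over genes was 24.8 to 57.0 times its degrees of freedom. Per-library values are given for collagens past the filter; in other lists the 3 members highest per kb, or fewer, are named, with Serpinh1, Vwf and the other markers chosen after their values were seen. Members and lists were chosen with earlier results of these data known. Alternatives were other size factors, no filter, DESeq2, a replicate block, a term for immunoglobulin-rich libraries, each library left out, and other detection minimums. Promoter windows come from RefSeq (GRCm38.p6), and a window was available for 35 of the 44 collagens.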

Additional observations from a re-analysis of the deposited data

How the results depend on the processing

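Under the 11 alternatives, edgeR with other settings and DESeq2 called 0 of the tested collagens each time. Over all genes, the count called was 0 in edgeR, 1 without a filter on low counts and 71 with DESeq2, and 0 with each library left out. Detected collagens numbered 13 at 10 counts, 19 at 1 count, 16 with counts scaled to the smallest library total, and 17 to 20 with a library left out. The difference in summed CPM was -3.29 without Col16a1, -6.22 with TMM scaling and between -22.7 and 24.2 with a library left out. For 8 of the 18 tested collagens, Col1a1, Col3a1, Col4a5, Col5a1, Col7a1, Col11a2, Col26a1 and Col28a1, the log2 fold change kept its sign under all 11 alternatives. For 10 it turned under at least 1, and the cause was not tested. With a library left out it ranged from -1.18 to 0.064 for Col1a2, -0.080 to 0.59 for Col4a1, -0.28 to 0.56 for Col4a2, -0.32 to 0.41 for Col5a3, -0.056 to 0.37 for Col9a3, -0.66 to 0.71 for Col16a1, -0.95 to 0.66 for Col18a1, -0.11 to 0.83 for Col20a1, -0.21 to 0.44 for Col22a1 and -0.048 to 0.23 for Col27a1. A term for immunoglobulin-rich libraries (Igha above 1000 CPM) gave 0.27 for Col4a2, 0.39 for Col16a1 and 0.10 for Col18a1. A replicate block called 0 collagens and 0 genes and gave 0.13 for Col4a2 and 0.054 for Col16a1. Libraries with the same replicate number did not deviate together from their group means (correlations -0.19, -0.51 and -0.22 over 14541 genes), so the numbers were not taken as pairs. Counts under 100 limit the precision of all collagens but 6.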
